A study of Mus musculus with 20 samples.

Results

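The genes described here are 10 genes of NAD synthesis and of its side branches, taken by symbol after the gene IDs of the count table were matched to the GENCODE vM21 annotation. They were Nampt, Nmrk1, Nmrk2, Naprt, Nadsyn1, Nmnat1, Nmnat3, Nadk, Nadk2 and Nnmt, 10 of 55335 annotated genes, and all 10 passed the filter on low counts that left 14878 genes for testing. The set was put together with the lower Nmrk2 level under isoproterenol already known, so that values of its genes between isoproterenol and vehicle are given as a description. Counts of calls in that contrast stand only beside the share over all genes and test nothing about the set. The data were total RNA libraries of hearts from C57BL/6N mice aged 3 to 5 months on an NIH-31 diet, made to ask how loss of OGFOD1, a prolyl hydroxylase whose substrate is the ribosomal protein Rps23, alters the response of the heart to isoproterenol, a beta-adrenergic agonist. There were 4 groups of 5 libraries: OGFOD1-knockout (KO) mice given isoproterenol, KO mice given vehicle, wild-type (WT) mice given isoproterenol and WT mice given vehicle. The vehicle was phosphate-buffered saline with sodium ascorbate, the isoproterenol was added to that same solution, and both were delivered for 2 weeks from an osmotic minipump. Neither the way the knockout was made nor the dose of isoproterenol is given in the sources used here. Nothing in the labels ties each library to a separate mouse, and p-values measure the spread between these libraries.

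NAD carries electrons in energy metabolism and is also consumed by sirtuins, PARP enzymes and glycohydrolases, so that cells remake it all the time. In most tissues, the heart included, the main route recycles nicotinamide, which Nampt turns into nicotinamide mononucleotide. Nicotinamide riboside enters at the same intermediate through the kinases Nmrk1 and Nmrk2, nicotinic acid enters through Naprt and Nadsyn1, and the Nmnat enzymes complete the dinucleotide in each route. NAD kinases turn NAD into NADP, and Nnmt methylates nicotinamide and so takes it out of the cycle.

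The gene on which most of the account turns is Nmrk2, the riboside kinase that is found mainly in muscle. It lies on the minus strand of GRCm38 chromosome 10, from 81198170 to 81202051, and 270 of its exon bases are shared with the antisense gene Atcayos. The sources used here do not give whether the counting used strand, so that reads of these 2 genes may not be fully separated. The stretch of 250 bases before its RefSeq start, chr10:81202038-81202287 on the minus strand of GRCm38.p6, is shown because Nmrk2 is the gene by which the set was chosen. Capitals mark matches on either strand to TATAAA, the TATA box, and to GGGCGG, the GC box, which do not overlap here.
Nmrk2 promoter: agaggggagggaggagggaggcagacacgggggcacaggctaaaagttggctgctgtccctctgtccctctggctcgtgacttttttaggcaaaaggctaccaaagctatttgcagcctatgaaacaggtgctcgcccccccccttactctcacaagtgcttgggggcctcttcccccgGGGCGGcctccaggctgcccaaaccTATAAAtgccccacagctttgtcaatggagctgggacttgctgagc
The window held 1 match to TATAAA, which 12.37% of the 32851 RefSeq promoter windows of that length hold on either strand, and 1 match to GGGCGG, which 32.74% hold. It held 0 matches to TGACG, the core of the cAMP response element, and 0 to CACGTG, an E-box. Of the 10 genes, 7 had a RefSeq entry, with 9 windows in all, and Nmrk2 had the only TATAAA match among those windows. The Nmrk2 window was 58.8% G and C and that of Nampt 75.6%, against a median of 52.4% over all windows. Such matches describe letters and are not evidence of binding.

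Facts of the whole series bear on these values as follows. Total counts ran from 14609808 to 43671055 per library, of which 55.5% to 61.9% came from the mitochondrial genome, and 5.92 to 17.1 M counts were left outside it. The targeted gene Ogfod1 measured 2.39 to 4.13 CPM (library-scaled counts, with factors from the TMM method) in the 10 KO libraries and 16.9 to 21.8 CPM in the 10 WT libraries. Summed over 8 cardiomyocyte markers, all tested, the libraries lay between 20000 and 34300 CPM. Replicate 5 of the KO isoproterenol group stood apart. Its smooth muscle and pericyte markers summed to 3590 CPM, against 716 to 755 CPM in the other 4 libraries of the group, its fibroblast markers to 1350 against 634 to 741 CPM, and its cardiomyocyte markers to 20000 against 24400 to 26500 CPM. Single genes weigh heavily in such sums. Over all libraries Eln reached 1960 CPM (median 43.2), Acta2 650 CPM (median 122), Postn 386 CPM (median 69.2) and Col1a1 379 CPM (median 31.4). Other markers of these lists varied less: Rgs5 reached 476 CPM (median 389) and Dcn 397 CPM (median 348). Replicate 5 of the KO isoproterenol group was the highest of its group in 3 of the 10 genes (Nadsyn1, Nadk and Nnmt) and the lowest in 4 (Nmrk2, Nampt, Nmnat3 and Nadk2). Replicate 2 of the WT vehicle group also stood apart. Its counts differed from the other 4 libraries of the group by a chi-square per degree of freedom of 59.4 to 68.2, where pairs of those 4 gave 4.47 to 11.1. It was the lowest of its group for Naprt, Nadsyn1 and Nmnat1 and the highest for Nmrk1. In a bulk sample, fewer cells of a type and less RNA per cell cannot be told apart.

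Nampt, the enzyme of nicotinamide recycling, was by far the most abundant transcript of the set. On a scale per length, CPM per kilobase of annotated exon, its level averaged 26.7 over the 20 libraries, or 60.3% of the summed level of the 10 genes (range 52.9% to 65.3%). Nadk2, the mitochondrial NAD kinase, averaged 5.12 on that per-length scale, Nadk, its cytosolic relative, 4.09, and Nmnat1, the nuclear adenylyltransferase, 3.58. Naprt averaged 1.30 and Nmnat3, described as the mitochondrial adenylyltransferase, 1.22. The last 4 were Nadsyn1 at 0.639, Nmrk2 at 0.591, Nnmt at 0.532 and Nmrk1 at 0.454.

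Several neighbours in that order did not differ beyond their spread. Nampt was above Nadk2 in 20 of 20 libraries, Nadk2 above Nadk in 19, Nadk above Nmnat1 in 17 and Nmnat1 above Naprt in 20. Naprt was above Nmnat3 in 10 of 20 libraries, so that these neighbours had no stable order. Nmnat3 exceeded Nadsyn1 in 19 of 20. Nadsyn1 was above Nmrk2 in 13, Nmrk2 above Nnmt in 9 and Nnmt above Nmrk1 in 9, so that these 3 pairs of neighbours had no stable order over all libraries. For Nmrk2 and Nadsyn1 the order of the group means differed between groups, and single libraries did not all follow it. In KO vehicle replicate 3, for example, the levels were 0.586 and 0.716. The group means were 1.06 and 0.677 in KO vehicle hearts. In KO isoproterenol hearts they were 0.432 and 0.687, in WT isoproterenol hearts 0.352 and 0.662, and in WT vehicle hearts 0.515 and 0.532. Naprt shares 277 exon bases with Eef1d on the same strand, and its level may be understated or mixed to that extent.

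**Figure D1:**
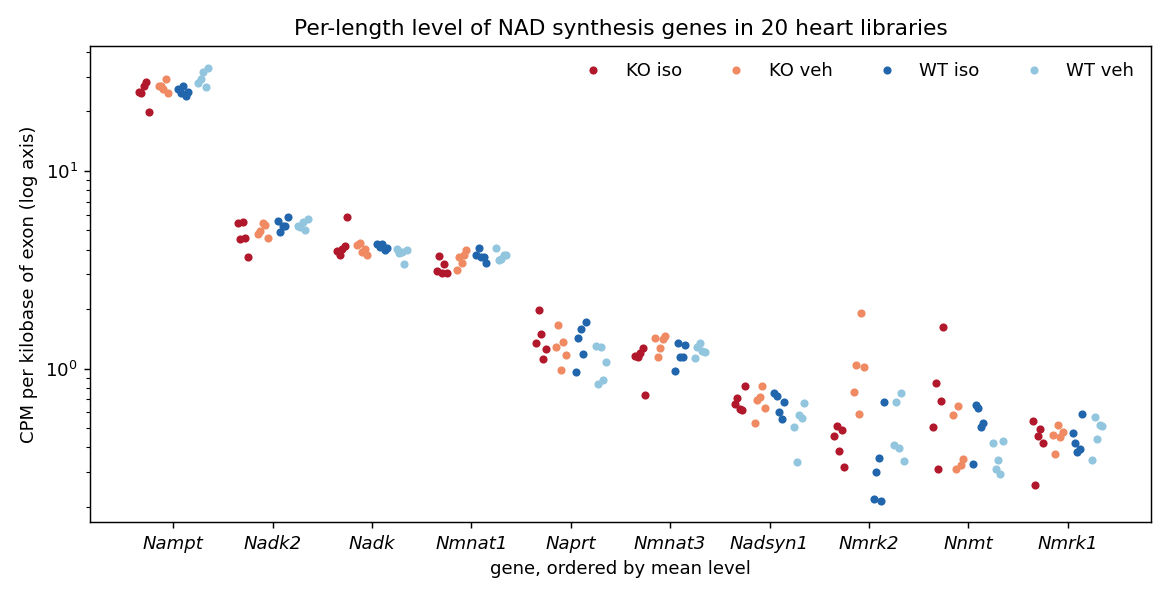
Level of each gene in each of the 20 libraries, as CPM per kilobase of exon on a log axis, with genes ordered by mean level and libraries coloured by group (KO isoproterenol, KO vehicle, WT isoproterenol, WT vehicle, left to right). Nampt lies above every other gene in all 20 libraries, and the 4 genes at the right overlap.

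Nmrk2 was low in every group and highest in vehicle-treated KO hearts. In KO hearts given isoproterenol the 5 libraries measured 0.848, 0.952, 0.709, 0.909 and 0.589 CPM, from 13 to 17 reads each. In KO hearts given vehicle they measured 1.42, 1.92, 1.09, 3.52 and 1.89 CPM, from 17 to 76 reads each. Every KO isoproterenol library lay below every KO vehicle library, and replicate 4 of the vehicle group was the highest of all 20. WT hearts given isoproterenol measured 0.404, 0.557, 0.650, 0.398 and 1.26 CPM, from 7 to 18 reads. WT hearts given vehicle measured 0.765, 1.26, 0.735, 1.39 and 0.630 CPM, from 14 to 27 reads. The WT groups overlapped, and replicate 5 of the WT isoproterenol group lay above 3 of the 5 WT vehicle libraries.

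The group means were 0.802 ± 0.150 CPM in KO isoproterenol hearts, 1.97 ± 0.936 CPM in KO vehicle hearts, 0.653 ± 0.354 CPM in WT isoproterenol hearts and 0.956 ± 0.343 CPM in WT vehicle hearts (SD, n = 5 each). As a description, the fitted log2 fold change of isoproterenol over vehicle was −1.32 (SE 0.300) in KO hearts and −0.62 (SE 0.342) in WT hearts. Leaving out each library in turn moved the KO value between −1.45 and −1.02, the smaller size without replicate 4 of the KO vehicle group. The WT value moved between −0.91, without replicate 5 of the WT isoproterenol group, and −0.43. The coefficient of variation of Nmrk2 between KO vehicle libraries was 47.5%, where counting error alone would give 16.4%, and in KO isoproterenol libraries it was 18.7%, where counting error alone would give 25.9%.

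Nmrk2 was the gene of the set nearest to a genotype difference, and it did not pass. Under vehicle its log2 fold change of KO over WT was 1.08 (SE 0.291, unadjusted p = 0.000862, adjusted p = 0.183 by edgeR's quasi-likelihood test with Benjamini-Hochberg adjustment over 14878 genes). Of the 5 KO vehicle libraries, 4 lay above the highest WT vehicle library and 1 lay within their range. Without replicate 4 of the KO vehicle group the log2 fold change was 0.79, and over all libraries left out in turn it ran from 0.79 to 1.27. With no filter on low counts the same test gave an adjusted p = 0.00373, while a stricter filter removed the gene. These KO vehicle libraries also enter the isoproterenol comparison in KO hearts, so that the values of both are not independent of each other.

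Under isoproterenol the log2 fold change of Nmrk2 in KO over WT was 0.38 (SE 0.353, edgeR adjusted p = 0.696). The difference between the isoproterenol responses, KO minus WT, was −0.70 on the log2 scale, with an interval of −1.68 to 0.28 (edgeR adjusted p = 0.723). The response to isoproterenol was thus not shown to differ between genotypes for Nmrk2, nor was it shown to be alike. Cardiomyocyte markers summed to 20000 to 26500 CPM in KO isoproterenol hearts and 26500 to 28900 CPM in KO vehicle hearts, and to 24200 to 26600 CPM in WT isoproterenol hearts and 28300 to 34300 CPM in WT vehicle hearts. With isoproterenol 1 of these 8 markers was lower in KO hearts and 3 in WT hearts, and 0 were higher in either (edgeR). Over all tested genes the share called in either direction was 9.03% in KO hearts and 8.76% in WT hearts. Myh6 weighs most in the sum, with a median of 11500 CPM over all libraries. The part of cardiomyocyte RNA in the Nmrk2 values was not tested.

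Nmrk1, the riboside kinase expressed across tissues, was nearly level over the groups. It averaged 1.6 ± 0.398 CPM in KO isoproterenol hearts, 1.68 ± 0.206 CPM in KO vehicle hearts, 1.66 ± 0.311 CPM in WT isoproterenol hearts and 1.76 ± 0.318 CPM in WT vehicle hearts (SD, n = 5 each). Its lowest library, at 0.952 CPM and 15 reads, was replicate 2 of the KO isoproterenol group. All log2 fold changes of Nmrk1 lay between −0.10 and 0.05, with SE of 0.186 to 0.267, and its edgeR adjusted p was 0.972 between genotypes under vehicle and 0.990 under isoproterenol.

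**Figure D2:**
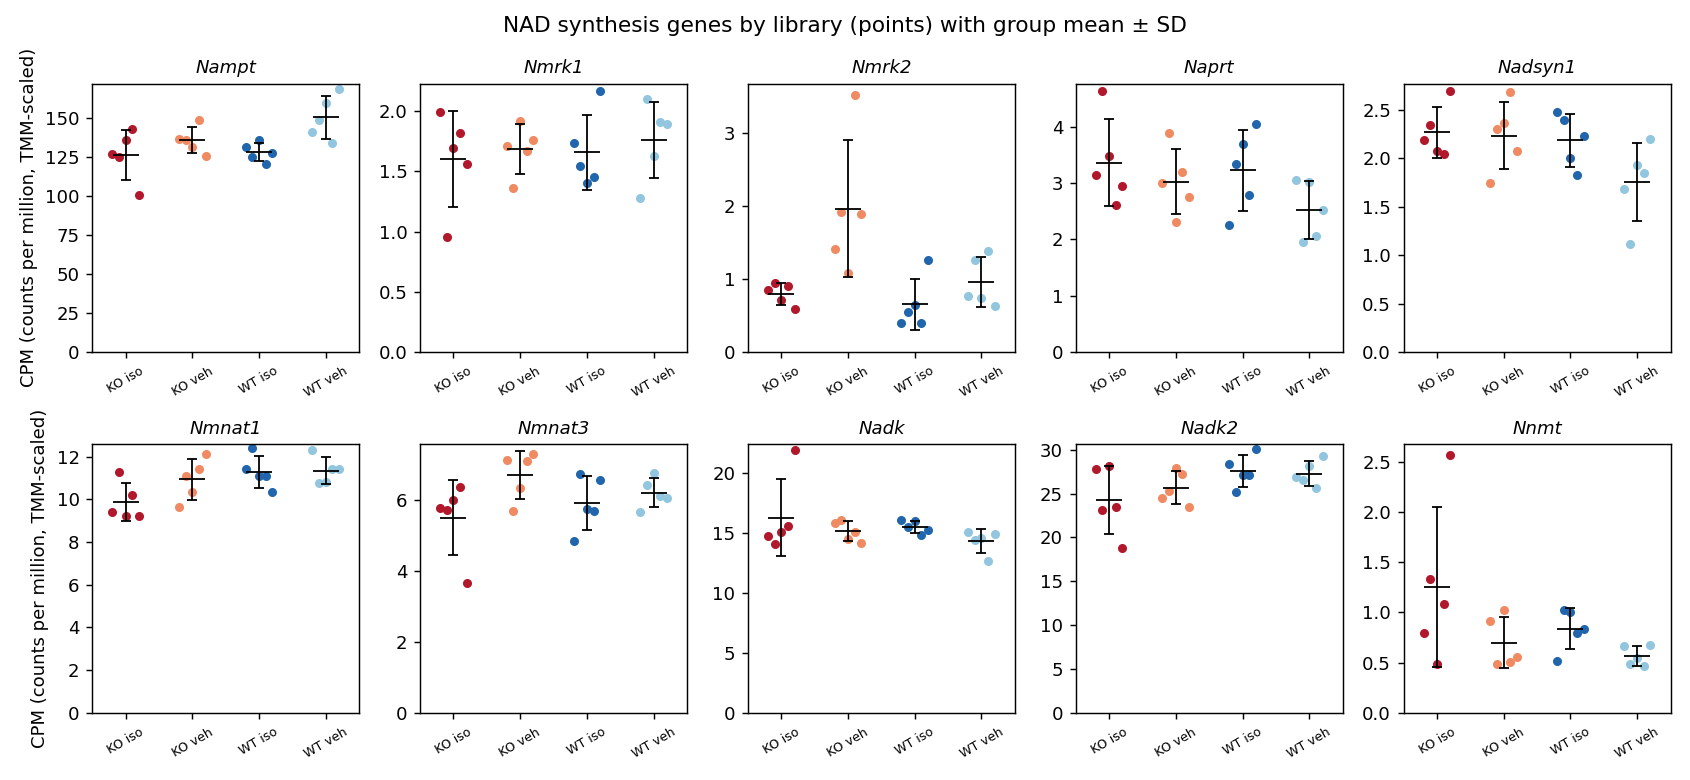
CPM of each of the 10 genes in each library (points), with the mean and SD of each group of 5 as black bars. Nmrk2 in KO vehicle hearts runs from 1.09 to 3.52 CPM, above all 5 KO isoproterenol libraries, while the groups of the other 9 genes overlap.

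The balance of the riboside kinases followed Nmrk2. Per length, the Nmrk2 level divided by the Nmrk1 level within each library averaged 1.08 ± 0.514 in KO isoproterenol hearts and 2.39 ± 1.19 in KO vehicle hearts, 0.761 ± 0.282 in WT isoproterenol hearts and 1.08 ± 0.304 in WT vehicle hearts (SD, n = 5 each). The ratio passed 1 in all 5 KO vehicle libraries, where its lowest value was 1.13, but the KO vehicle range reached down into the ranges of the other 3 groups. Passing 1 depends on the annotated exon lengths, 1854 bases for Nmrk2 and 3689 for Nmrk1. In CPM, Nmrk2 lay below Nmrk1 in KO vehicle replicate 1 (1.42 against 1.71) and replicate 3 (1.09 against 1.92). Nampt divided by the summed level of both kinases averaged 28.9 ± 3.07 in KO isoproterenol hearts and 18.7 ± 4.39 in KO vehicle hearts. It averaged 33.6 ± 7.87 in WT isoproterenol hearts and 31.7 ± 8.69 in WT vehicle hearts. The KO vehicle libraries, at 12.5 to 23.5, lay below all KO isoproterenol libraries, at 25.1 to 32.1, and overlapped the WT groups. These ratios are built from the same values as above and were not tested.

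**Figure D3:**
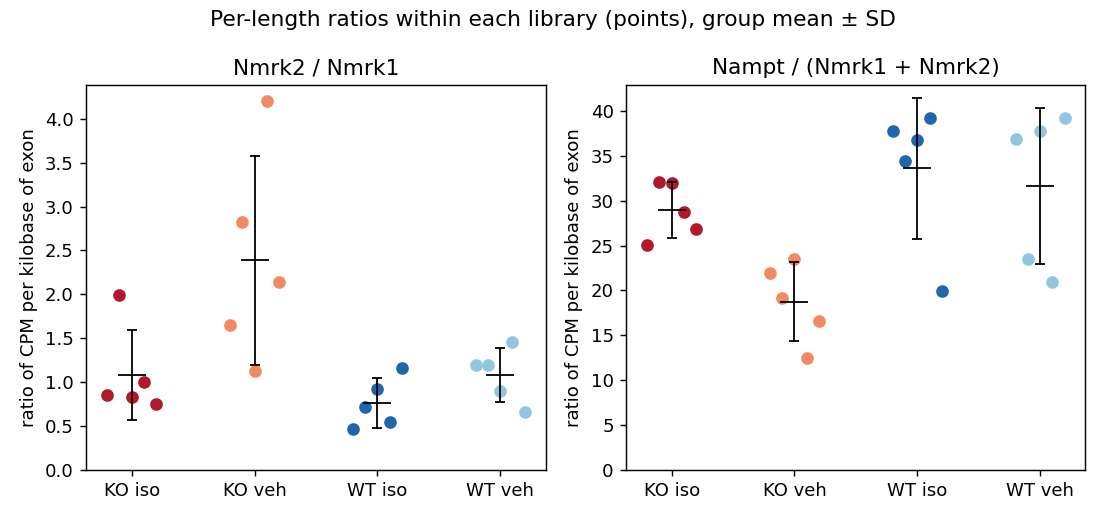
Ratios of per-length levels within each library (points) with group mean and SD: Nmrk2 over Nmrk1 at the left, Nampt over the summed level of Nmrk1 and Nmrk2 at the right. KO vehicle hearts have the highest mean at the left (2.39) and the lowest at the right (18.7).

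Nampt moved little. It measured 127, 125, 136, 143 and 100.5 CPM in KO isoproterenol hearts and 136, 136, 131, 148 and 126 CPM in KO vehicle hearts. WT isoproterenol hearts measured 131, 125, 136, 121 and 127 CPM, and WT vehicle hearts 141, 148, 160, 134 and 168 CPM. The WT vehicle libraries were the highest as a group, with only replicate 4 inside the WT isoproterenol range, and the lowest library of all was replicate 5 of the KO isoproterenol group. The log2 fold change of isoproterenol over vehicle was −0.10 (SE 0.0758) in KO hearts and −0.23 (SE 0.0758) in WT hearts.

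Between genotypes the log2 fold change of Nampt was −0.15 under vehicle (SE 0.0757, edgeR adjusted p = 0.614) and −0.02 under isoproterenol (edgeR adjusted p = 0.941). The difference between responses was 0.13, with an interval of −0.10 to 0.36. With 1823 or more Nampt reads in every library, counting error alone would give a coefficient of variation of at most 2.06% in any group, against 4.59% to 12.7% observed.

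The genes of the nicotinic acid route, Naprt, which makes nicotinic acid mononucleotide, and Nadsyn1, which amidates the dinucleotide at the last step, had their lowest means in WT vehicle hearts. Naprt averaged 3.37 ± 0.778 CPM in KO isoproterenol hearts, 3.03 ± 0.583 CPM in KO vehicle hearts, 3.23 ± 0.718 CPM in WT isoproterenol hearts and 2.52 ± 0.517 CPM in WT vehicle hearts (SD, n = 5 each). Nadsyn1 averaged 2.27 ± 0.265 CPM in KO isoproterenol hearts, 2.24 ± 0.349 CPM in KO vehicle hearts, 2.19 ± 0.273 CPM in WT isoproterenol hearts and 1.76 ± 0.404 CPM in WT vehicle hearts (SD, n = 5 each). For both genes all 4 groups overlapped. Replicate 2 of the WT vehicle group was the lowest of all 20 libraries for both, at 1.96 CPM for Naprt and 1.12 CPM for Nadsyn1.

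The log2 fold change of isoproterenol over vehicle was 0.13 for Naprt and 0.04 for Nadsyn1 in KO hearts, and 0.32 (SE 0.180) and 0.28 (SE 0.171) in WT hearts. Of KO over WT under vehicle it was 0.26 for Naprt (SE 0.178, edgeR adjusted p = 0.753) and 0.31 for Nadsyn1 (SE 0.168, edgeR adjusted p = 0.645). Neither passed, and under isoproterenol the values were 0.07 for both (SE 0.176 and 0.167).

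The adenylyl transferases Nmnat1 and Nmnat3 differed from each other in level more than between groups. Per length, Nmnat1 was 2.23 to 4.15 times as abundant as Nmnat3 within a library. Nmnat1 averaged 9.88 ± 0.896 CPM in KO isoproterenol hearts, 10.9 ± 0.977 CPM in KO vehicle hearts, 11.3 ± 0.749 CPM in WT isoproterenol hearts and 11.4 ± 0.634 CPM in WT vehicle hearts (SD, n = 5 each). Under isoproterenol its log2 fold change of KO over WT was −0.20 (SE 0.0838, unadjusted p = 0.0252, edgeR adjusted p = 0.314), the smallest p of the set there, and the groups overlapped.

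Nmnat3 measured 5.79, 5.71, 6.00, 6.36 and 3.66 CPM in KO isoproterenol hearts, and 5.69 to 7.29 CPM (median 7.09) in KO vehicle hearts. It measured 4.85 to 6.72 CPM (median 5.75) in WT isoproterenol hearts and 5.66 to 6.77 CPM (median 6.13) in WT vehicle hearts. The value of 3.66 CPM belongs to the library with high summed smooth muscle and fibroblast markers, whose part in it was not tested. The log2 fold change of isoproterenol over vehicle was −0.30 (SE 0.123) in KO hearts and −0.07 (SE 0.123) in WT hearts, and in KO hearts it was −0.17 at its smallest when libraries were left out in turn. Between genotypes it was 0.11 under vehicle (edgeR adjusted p = 0.881) and −0.11 under isoproterenol (edgeR adjusted p = 0.758).

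The NAD kinases varied most in the KO isoproterenol group, for Nadk through its replicate 5 and for Nadk2 only in part. The SD of Nadk there was 3.21 CPM with that library and 0.613 CPM without it. That of Nadk2 was 3.87 CPM with it and 2.72 CPM without it, against at most 1.88 CPM in the other groups. Nadk measured 14.7, 14.1, 15.1, 15.6 and 21.9 CPM in KO isoproterenol hearts, against 14.1 to 16.1 CPM in KO vehicle hearts. WT isoproterenol hearts measured 14.8 to 16.0 CPM, and WT vehicle hearts 12.7 to 15.1 CPM, the lowest value in replicate 4. Nadk2 was 27.8, 23.1, 28.2, 23.5 and 18.8 CPM in KO isoproterenol hearts, against 23.4 to 28.0 CPM in KO vehicle hearts, 25.2 to 30.04 CPM in WT isoproterenol hearts and 25.6 to 29.3 CPM in WT vehicle hearts. In replicate 5 the cytosolic kinase was thus at its highest and the mitochondrial kinase at its lowest of all 20 libraries, and the ratio Nadk2 over Nadk per length was 0.627 there, the lowest of all, against a median of 1.31 over the 20 libraries.

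The log2 fold change of isoproterenol over vehicle was 0.11 for Nadk in each genotype (SE 0.0907 in KO, 0.0918 in WT), and −0.02 in KO hearts without that library. For Nadk2 it was −0.08 in KO hearts and 0.01 in WT hearts. Under isoproterenol the log2 fold change of KO over WT for Nadk2 was −0.18 (SE 0.0840, unadjusted p = 0.0377, edgeR adjusted p = 0.356), and that of Nadk was 0.08 with the library and −0.06 without it. Neither passed.

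Nnmt, the methyltransferase that removes nicotinamide, was the gene with the largest positive values under isoproterenol, and it rested on few reads. It measured 0.798, 1.33, 0.491, 1.08 and 2.57 CPM in KO isoproterenol hearts and 0.917, 0.490, 1.02, 0.510 and 0.552 CPM in KO vehicle hearts. WT isoproterenol hearts measured 0.520, 1.03, 1.00, 0.797 and 0.838 CPM, and WT vehicle hearts 0.663, 0.489, 0.542, 0.463 and 0.674 CPM. In each genotype 4 of 5 isoproterenol libraries were above the vehicle median and the groups overlapped. Read counts ran from 7 to 61 per library.

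The log2 fold change of isoproterenol over vehicle for Nnmt was 0.92 (SE 0.320) in KO hearts and 0.56 (SE 0.350) in WT hearts. Without replicate 5 of the KO isoproterenol group, which had the value of 2.57 CPM, the KO value was 0.44. Of KO over WT it was 0.24 under vehicle (SE 0.358, edgeR adjusted p = 0.927) and 0.60 under isoproterenol (SE 0.314, edgeR adjusted p = 0.416). Without that library the value under isoproterenol was 0.12. Fibroblast markers, 8 of 8 tested and none at 0, summed to 634 to 1350 CPM in KO isoproterenol hearts and 489 to 584 CPM in KO vehicle hearts, and to 580 to 695 CPM in WT isoproterenol hearts and 447 to 515 CPM in WT vehicle hearts. In each genotype 4 of the 8 were higher with isoproterenol and 0 lower (edgeR). Of all tested genes, 9.03% were called in KO hearts and 8.76% in WT hearts, in either direction. The part of fibroblast RNA in the Nnmt values was not tested.

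**Figure D4:**
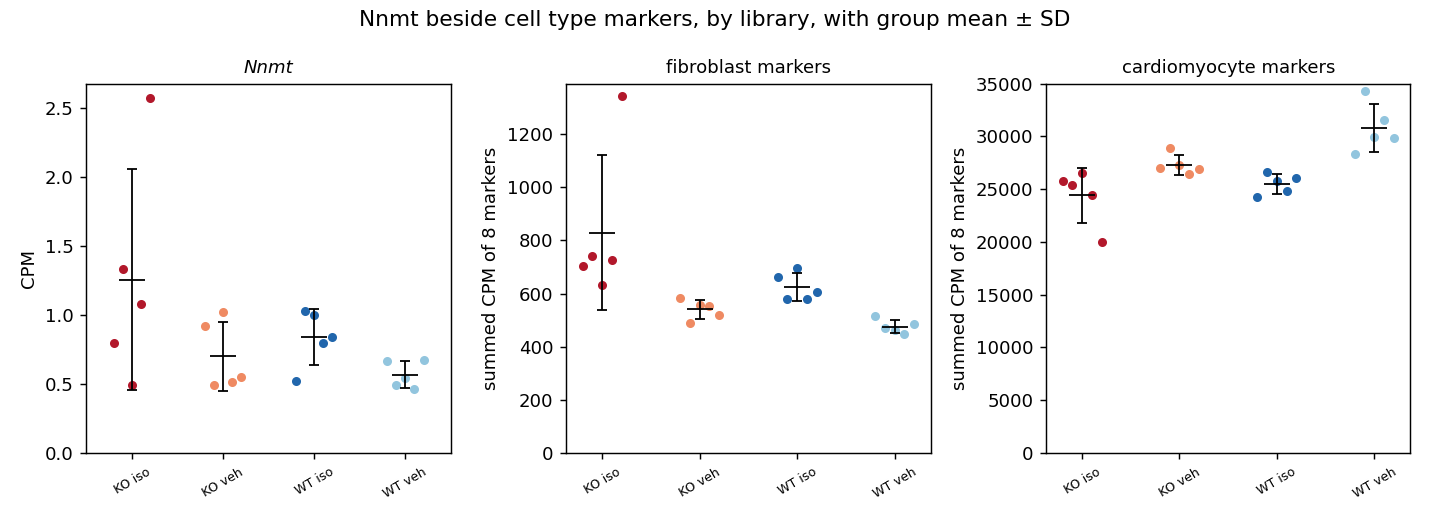
Nnmt in CPM (left), 8 fibroblast markers summed (middle) and 8 cardiomyocyte markers summed (right) in each library, with group mean and SD. The KO isoproterenol library with the highest Nnmt (2.57 CPM) also has the highest fibroblast sum (1350 CPM) and the lowest cardiomyocyte sum (20000 CPM).

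Counted over the set, 1 of the 10 genes, Nmrk2, was called lower and 0 were called higher between isoproterenol and vehicle in KO hearts at an edgeR adjusted p under 0.05, where 9.03% of all tested genes were called in either direction and 4.29% lower. Its groups were also the only ones of the 10 that did not overlap, where 8.06% of tested genes had groups that did not overlap. In WT hearts 0 of the 10 were called by edgeR, where 8.76% of all tested genes were. There, 1 of the 10 had an unadjusted p under 0.05, as had 3421 of all 14878 genes. DESeq2 called 1 of the 10, Nampt, and 9.68% of the genes it tested, and limma-voom called 0 of the 10 and 9.13% of all tested genes. Of the 10, 0 had groups that did not overlap, where 8.05% of tested genes did. The set was chosen on this contrast, and nothing is read from these counts. The median log2 fold change of the 10 was −0.07 in KO hearts and 0.0018 in WT hearts, beside 0.01 and 0.0039 over all tested genes.

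Between genotypes under vehicle 0 of the 10 genes were called by edgeR, DESeq2 or limma-voom. Of the genes each tool tested, edgeR called 0.128%, DESeq2 0.616% and limma-voom 0.148%. Of the 10, 1 had an unadjusted p under 0.05, as had 1236 of all 14878 genes. Under isoproterenol 0 of the 10 were called by edgeR, DESeq2 or limma-voom. There edgeR called 0.181%, DESeq2 1.27% and limma-voom 0.148% of the genes each tested. Of the 10, 2 had an unadjusted p under 0.05, as had 1935 of all 14878 genes. Groups that did not overlap were found for 0 of the 10 in both, where 2.02% of tested genes under vehicle and 2.14% under isoproterenol had them. For the difference between responses edgeR called 0 of all 14878 genes, DESeq2 and limma-voom called 0 of the 10, and 0 of the 10 had an unadjusted p under 0.05, where 1142 of all genes did. In the genotype comparisons 7 of the 10 genes under vehicle and 8 under isoproterenol had log2 fold changes within 0.25 of 0. Under vehicle the interval of that value was narrow for Nampt, −0.31 to 0.01, and wide for Nmrk2, 0.47 to 1.70, and for Nnmt, −0.52 to 1.00. Intervals in this account are at the 0.05 level for each gene alone and are not adjusted over the 14878 genes. That of Nmrk2 leaves out 0, while its edgeR adjusted p was 0.183 and did not pass.

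**Figure D5:**
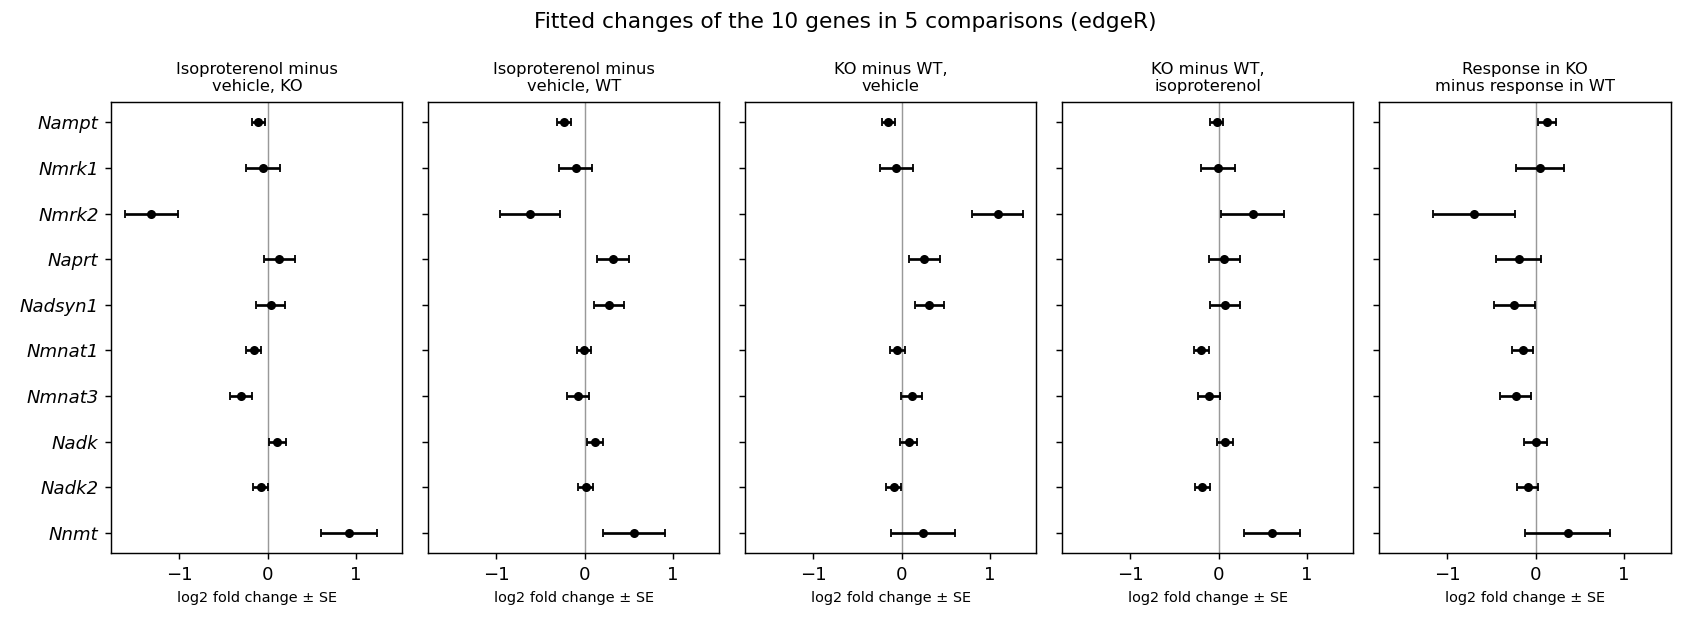
Fitted log2 fold change (points) and SE (bars) of the 10 genes in the 5 comparisons. Nmrk2 has the lowest value in both isoproterenol comparisons (−1.32 in KO, −0.62 in WT) and the highest in KO over WT under vehicle (1.08), and most other values lie within 0.25 of 0.

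Genes around the pathway were taken from 6 lists of 59 genes, of which 46 were tested. In KO hearts isoproterenol raised 1 and lowered 2 of the 46 (edgeR), beside the 9.03% of all genes called. Art5, of the ADP-ribosyltransferase family, averaged 5.15 ± 0.792 CPM in KO isoproterenol hearts and 3.22 ± 0.421 CPM in KO vehicle hearts (SD, n = 5 each), a log2 fold change of 0.67 (SE 0.129, edgeR adjusted p = 0.000918). Its relative Art3 averaged 92 ± 21.5 CPM in KO isoproterenol hearts and 135 ± 16.8 CPM in KO vehicle hearts, a log2 fold change of −0.55 (edgeR adjusted p = 0.0234). Slc29a2, an equilibrative nucleoside transporter, averaged 2.70 ± 0.441 CPM in KO isoproterenol hearts and 3.79 ± 0.896 CPM in KO vehicle hearts, a log2 fold change of −0.49 (edgeR adjusted p = 0.0402).

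In WT hearts isoproterenol raised 1 and lowered 2 of the 46 (edgeR), beside the 8.76% of all genes called. Art5 averaged 5.79 ± 0.713 CPM in WT isoproterenol hearts and 3.78 ± 0.469 CPM in WT vehicle hearts, a log2 fold change of 0.61 (edgeR adjusted p = 0.00228). Art3 averaged 96.5 ± 12.6 CPM in WT isoproterenol hearts and 136 ± 15.5 CPM in WT vehicle hearts, a log2 fold change of −0.49 (edgeR adjusted p = 0.0450). Parp1, the main PARP of DNA damage, averaged 23.8 ± 1.86 CPM in WT isoproterenol hearts and 27.7 ± 1.40 CPM in WT vehicle hearts, a log2 fold change of −0.22 (edgeR adjusted p = 0.0287). Art5 kept its call in both genotypes under every alternative run. The call of Art3 was lost in KO hearts without KO vehicle replicate 2 or 3 or with the WT groups left out of the fit, and in WT hearts without WT vehicle replicate 1, 3, 4 or 5, WT isoproterenol replicate 1, 2, 3 or 4, several KO libraries, or the filter on low counts. That of Slc29a2 was lost in KO hearts without KO isoproterenol replicate 1, 2, 4 or 5, KO vehicle replicate 1, 2 or 5, both libraries that stood apart, or the WT groups. That of Parp1 was lost in WT hearts without WT isoproterenol replicate 3 or 5, WT vehicle replicate 3 or 4, or the filter.

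The 7 sirtuins, NAD-dependent deacylases, gave 0 calls in any of the 5 comparisons by edgeR, DESeq2 or limma-voom. Of the 7, 1 had an unadjusted p under 0.05, in KO hearts with isoproterenol, beside 3435 of all 14878 genes. Of 12 genes of the de novo route from tryptophan and its side branches, 3 were tested (Afmid, Kyat1 and Kyat3). By edgeR, DESeq2 or limma-voom 0 of these 3 were called. At an unadjusted p under 0.05 there was 1 in each isoproterenol comparison and 1 between genotypes under isoproterenol. Of all 14878 genes, 3435 had such a p with isoproterenol in KO hearts, 3421 in WT hearts and 1935 between genotypes under isoproterenol. The other 9, among them Tdo2, Ido1 and Qprt, had at most 17 reads in any library. Between genotypes 0 of the 46 genes were called by edgeR, DESeq2 or limma-voom under vehicle or under isoproterenol, and 4 had an unadjusted p under 0.05 in each, beside 1236 of all 14878 genes under vehicle and 1935 under isoproterenol. For the difference between responses 0 were called by these tools and 1 had an unadjusted p under 0.05, beside 1142 of all genes.

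The genes whose pattern over the 20 libraries was most like that of 3 of the genes were found by the root mean square difference of centred log2 CPM among 11578 genes. For Nmrk2, whose own root mean square deviation from its mean was 0.704, the 5 nearest included Rtn4r at 0.481, Slc19a2 at 0.500, Tuba8 at 0.510 and Bc1 at 0.513. For Nampt, with a deviation of 0.153, the 5 nearest included Ndrg2 at 0.0820, Calcoco1 at 0.0883, Ybx1 at 0.0908 and Sod1 at 0.0911. For Nnmt, with a deviation of 0.555, they were Mmp23 at 0.276, Rcn3 at 0.282, Pcolce2 at 0.290, Sparc at 0.296 and Loxl1 at 0.298. The distances are log2 units over libraries that share depth and cell makeup.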

How the data were processed

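The deposited values were raw counts for each gene, made by the authors from stranded total RNA libraries of powdered hearts, per the labels' protocols, with HISAT2 2.1.0 and featureCounts 1.6.3 on GRCm38, per the submitters' processing notes. The sources used here give neither the annotation nor the strand setting. Of 55335 IDs, 55154 were found in GENCODE vM21, and 0 columns lacked a sample. The 10 genes and all lists were chosen with earlier results of these data known. All 10 were named whatever their p, as were genes of the other lists called in at least 1 of the 5 comparisons, and the 5 genes most like Nmrk2, Nampt and Nnmt. Some genes that this rule names are left out of the text.

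The counts were fitted with edgeR 4.0.16 under R 4.3.3: filterByExpr, TMM scaling, 1 robust quasi-likelihood fit of all 20 libraries with a mean per group (16 residual degrees of freedom, common biological coefficient of variation 0.119), and Benjamini-Hochberg adjustment over 14878 genes at 0.05. The fit was tested on simulated counts, with changed genes drawn from those with an average log2 CPM above 0. Changes of 1.5-fold were recovered at 63% for isoproterenol in KO hearts, 64% between genotypes under vehicle and 39% for the difference between responses. Those of 2-fold were recovered at 92%, 89% and 79%. These rates pool genes of many levels and were not measured apart for counts as low as those of Nmrk2 and Nnmt. False calls were 4 of 159, 7 of 160 and 8 of 126. CPM and SD were computed from the scaled counts, and CPM per kilobase from the exon length in GENCODE. Within a group, library pairs differed by more than sampling noise (chi-square per degree of freedom 3.85 to 68.2 over 40 pairs), and none was counted as a copy. Alternatives were DESeq2 1.42.0, limma-voom (limma 3.58.1), each library left out in turn, a fit of the compared groups alone, counts without mitochondrially encoded genes, and other filters and scalings. The removal of both libraries that stood apart was chosen after seeing the data. Promoter windows came from RefSeq (GRCm38.p6). Python 3.11.15 and matplotlib 3.10.9 drew the figures.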

Additional observations from a re-analysis of the deposited data

Results flagged for a closer look

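Over the 10 genes in 4 groups, 3 of 40 groups of 5 held a library far from the other 4 by Dixon's criterion, where chance gives about 5%. Nmnat3 was 3.66 CPM in replicate 5 of the KO isoproterenol group, against 5.71 to 6.36 CPM in the other libraries of the group. Nadk was 21.9 CPM in that same library, against 14.1 to 15.6 CPM in the other 4. Nadk was 12.7 CPM in replicate 4 of the WT vehicle group, against 14.4 to 15.1 CPM in the other 4. No cause was tested.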

How the results depend on the processing

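No paired analysis was possible because the labels carry no replicate numbers, and those used here follow accession order and pair nothing. Nmrk2 and Nnmt rest on 7 to 76 reads per library, so that depth limits both. Calls between isoproterenol and vehicle are counts only, since the set was chosen on that contrast. In KO hearts with isoproterenol 2 of the 10 genes were called with no filter on low counts (Nmrk2 and Nnmt), beside 4.76% of all genes. With a stricter filter 0 were called, beside 11% of all genes, and that filter removed both Nmrk2 and Nnmt. In WT hearts 1, Nampt, was called with DESeq2, no filter, a stricter filter, mitochondrially encoded genes removed, only the groups compared, or without both libraries that stood apart. The share of all genes called under these settings ran from 4.6% (no filter) to 10.8% (stricter filter). Under vehicle 1, Nmrk2, was called between genotypes with no filter, where 117 of all 32544 genes (0.36%) were called. Of the other NAD genes, in KO hearts 5 were called with DESeq2 and 5 with no filter, beside 10.7% and 4.76% of all genes. In WT hearts 5 were called with no filter, a stricter filter or only the groups compared, and 6 without both libraries. The shares of all genes called there were 4.6%, 10.8%, 9.29% and 9.48%, in that order. Between genotypes under vehicle 1 was called with no filter, and for the difference between responses 1 with no filter and 1 without both libraries. Of all genes, 0.36%, 0.104% and 0.0267% were called there, in that order. With 1 library left out, the 10 genes gave 1 to 2 calls in KO hearts (2, with Nnmt added, without KO isoproterenol replicate 1 or 3) and 0 to 1 in WT hearts (1, Nampt, without KO isoproterenol replicate 4 or 5 or WT vehicle replicate 4). The shares of all genes in those fits were 8.44% and 9.39% in KO hearts and 8.13%, 11.2% and 5.97% in WT hearts. The other genes gave 1 to 5 calls in KO hearts (1 without KO vehicle replicate 2, 5 without WT vehicle replicate 2), 1 to 8 in WT hearts (8 without KO isoproterenol replicate 5, 5 without WT isoproterenol replicate 2, 1 without WT isoproterenol replicate 3 or WT vehicle replicate 4), and 0 to 1 between genotypes under vehicle and for the difference (1 in each without KO isoproterenol replicate 5). In the same order, the shares of all genes called were 6.8% and 9.57% in KO hearts and 11.2%, 8.29%, 6.11% and 5.97% in WT hearts. They were 0.233% between genotypes under vehicle and 0.00666% for the difference.

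Some small log2 fold changes changed sign. Without both libraries that stood apart these were, in KO hearts with isoproterenol, Nadsyn1 at −0.034, Nadk at −0.022 and Nadk2 at 0.0088; in WT hearts, Nadk2 at −8e-04; between genotypes under isoproterenol, Nmrk1 at 0.0115, Nampt at 0.052, Nmnat3 at 0.015 and Nadk at −0.059; and for the difference, Nadk2 at 0.0096 and Nnmt at −0.079. With limma-voom Nmrk1 between genotypes under isoproterenol was 0.0053. The difference for Nadk was 0.002 with a stricter filter and 0.0047 with mitochondrially encoded genes removed. With 1 library left out, values in KO hearts ran from −0.14 to 0.072 for Nmrk1, −7e-04 to 0.24 for Naprt, −0.040 to 0.11 for Nadsyn1, −0.022 to 0.16 for Nadk and −0.14 to 0.0083 for Nadk2. In WT hearts they ran from −0.047 to 0.024 for Nmnat1 and −0.019 to 0.040 for Nadk2. Between genotypes under vehicle Nmrk1 ran from −0.15 to 0.0099. Between genotypes under isoproterenol they ran from −0.10 to 0.11 for Nmrk1, −0.071 to 0.052 for Nampt, −0.17 to 0.015 for Nmnat3, −0.069 to 0.15 for Naprt, −4e-04 to 0.12 for Nadsyn1 and −0.059 to 0.12 for Nadk. For the difference they ran from −0.042 to 0.17 for Nmrk1, −0.13 to 0.044 for Nadk and −0.12 to 0.56 for Nnmt. Over all genes and alternatives 50 values changed sign, 13 passed that had not and 1367 did neither. The causes were not tested beyond the samples and genes each alternative leaves out.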
